A study of Rattus norvegicus with 12 samples.

Results

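Oxidative phosphorylation is run by enzyme complexes built from the products of 2 genomes, and 42 of its genes are described here across high-glucose cultures given resveratrol or resveratrol with a sirtuin inhibitor. The set holds 29 nuclear genes, drawn from the NDUF, SDH, UQCR, COX and ATP5 families with CYC1 and CYCS, and the 13 protein genes of mitochondrial DNA, from MT-ND1 to MT-CYB. The members were chosen by identifier, and all 42 were among the 20263 genes of the deposited tables. All 42 passed the filter on low values.

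The cultures were of H9C2, an established cell line that came from the heart of a rat embryo. By their labels these are wild-type cardiomyocytes. All groups were held for 48 h and each has 3 libraries labelled as biological replicates. The HG group grew at 100 mM glucose with no drug. HG-Res had the same glucose plus resveratrol at 5 µM. In HG-Res-SIRT7-Inh, called the inhibitor group here, a SIRT7 inhibitor according to the labels was present too, also at 5 µM. The protocol names this inhibitor SirReal2, which is sold widely as an inhibitor of SIRT2. A further group, Ctrl, was in 5.5 mM glucose without a drug. The labels describe no vehicle, no osmotic control and no group with the inhibitor alone, so the inhibitor was measured only on top of resveratrol.

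Rat is the labelled organism and rn6 the build in the submitters' processing notes, yet every gene identifier carries the human Ensembl prefix, ENSG. No deposited table gives gene names, and 0 of the 42 identifiers were found in the rat gene table. Members are therefore given by identifier and by the genome they belong to, without a symbol for each and without a split by complex. For the same reason the labelled cell type was not set against its marker genes. The species of the measured transcripts was not settled.

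Electrons from NADH enter the respiratory chain at complex I, the NADH dehydrogenase, whose nuclear subunits carry the prefix NDUF. Those from succinate enter at complex II, built from the SDH genes. They pass through complex III (UQCR genes, CYC1) and the small carrier cytochrome c (CYCS) to complex IV, cytochrome c oxidase (COX genes), which reduces oxygen. Complex V, the ATP synthase (ATP5 genes), uses the proton gradient that complexes I, III and IV build. Complex II is encoded in the nucleus alone, while the other 4 complexes also hold subunits encoded in mitochondrial DNA. Mitochondrial genes are copied inside the organelle by a polymerase of its own, as long transcripts that are then cut apart, so their RNA is made apart from that of the nuclear subunits. Heart muscle is rich in mitochondria and draws most of its ATP from this pathway.

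The unit of all levels is CPM, in which each library is scaled to one and the same total of reads. Levels are not scaled by gene length and compare a gene between libraries, not with another gene. The recovered depth of the 9 high-glucose libraries was 30.29 to 33.17 M reads. The second HG library and the third of the inhibitor group (HG replicate 2, inhibitor replicate 3) stood apart from the rest on the first principal component of all tested genes, at -29.7 and 50.7, with the other 7 libraries between -14.4 and 17.1. For counts and some of the genes that turn on either library, results are given with and without it.

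As a sum, the mitochondrial-DNA genes were higher with each added compound, and the nuclear genes were not. The 13 mitochondrial-DNA genes summed to 40708, 43778 and 42005 CPM in HG, 46575, 45998 and 45989 in HG-Res, and 56015, 52434 and 52776 in HG-Res-SIRT7-Inh. Every HG-Res library lay above every HG library, and every HG-Res-SIRT7-Inh library lay above both. As a share of reads these sums were 4.22% ± 0.154 in HG, 4.62% ± 0.0336 with resveratrol and 5.37% ± 0.198 with both compounds (SD, n = 3). The mean sum was 1.10 times that of HG with resveratrol and 1.27 times with both compounds.

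The 29 nuclear genes summed to 7139, 7386 and 6614 CPM in HG, 6616, 6798 and 7070.0 in HG-Res, and 7330.0, 6955 and 6670.0 in HG-Res-SIRT7-Inh. The 3 groups overlapped on this sum, whose means were 7046 ± 394 (SD, n = 3), 6828 ± 228 and 6985 ± 331 CPM. The ratio of the 2 sums within a library, which no scaling between libraries can move, was 5.70, 5.93 and 6.35 in HG, 7.04, 6.77 and 6.51 in HG-Res, and 7.64, 7.54 and 7.91 in HG-Res-SIRT7-Inh. The groups did not overlap on the ratio either. Sums follow their most abundant genes most. Taken as a median over genes, the log2 deviation from each gene's mean gave less separation. For mitochondrial-DNA genes it was -0.193, -0.068 and -0.128 in HG and overlapped HG-Res (-0.056, -0.075 and -0.075). With the inhibitor it was 0.274, 0.176 and 0.119, above both. There the nuclear median was 0.093, -0.002 and 0.101, so in inhibitor replicate 3 the origins were close. A higher share of mitochondrial RNA in bulk RNA can come, among other things, from more of it in each cell, less of other RNA or another mix of cells. These cannot be told apart here, and none was tested. The sums were given no test, since the members were chosen with earlier results known.

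**Figure D1:**
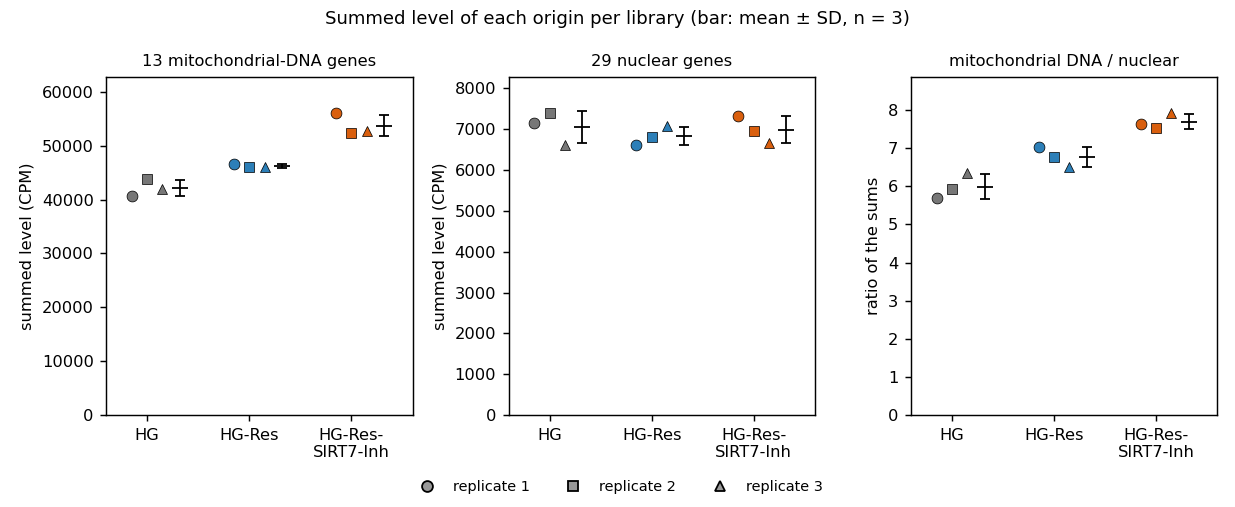
Summed level in CPM of the 13 mitochondrial-DNA genes (left) and the 29 nuclear genes (middle), and the ratio of the 2 sums (right), for each library of the 3 groups, with the mean ± SD beside the points. The mitochondrial sums climb from 40708 to 43778 CPM in HG to 52434 to 56015 in HG-Res-SIRT7-Inh without overlap, while the nuclear sums of the 3 groups overlap.

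No gene of either origin passed the test for resveratrol. Between HG-Res and HG, 0 of 13 mitochondrial-DNA genes and 0 of 29 nuclear genes had an adjusted p under 0.05 (limma on log2(CPM + 1), Benjamini-Hochberg over 12854 genes), where 0.708% of all tested genes did. At an unadjusted p under 0.05, 2 of the 13 mitochondrial-DNA genes were higher and 2 of the 29 nuclear genes lower in limma, where 4.99% of all tested genes were higher and 5.66% lower, so the nuclear count was near the background. By the authors' q-values in their deposited table, 2 mitochondrial-DNA genes were higher and 1 nuclear gene was lower at 0.05, where 4.67% of tested genes were higher and 3.8% lower. The median log2 difference was 0.07 over the mitochondrial-DNA genes and -0.07 over the nuclear genes, beside -0.001 over all tested genes. Of the 13 mitochondrial-DNA genes 12 lay above 0, and of the 29 nuclear genes 17 lay below it. Genes cut from shared long transcripts are not independent of each other, so counts over the 13 are not counts of separate observations.

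Among the mitochondrial-DNA genes, 2 had the smallest p with resveratrol. ENSG00000198840 was at 2028, 2125 and 2119 CPM in HG and at 2484, 2512 and 2702 in HG-Res. ENSG00000198712 was at 8551, 9404 and 8473 CPM in HG and at 10537, 10421 and 10453 in HG-Res. In both genes every HG-Res library was above every HG library. Their log2 differences were 0.29 ± 0.08 and 0.25 ± 0.07 (SE), with limma adjusted p = 0.180 and 0.201. Both passed in 4 of 20 alternatives: the fit of HG and HG-Res alone (limma adjusted p = 0.0293 and 0.0385), the fit that left out replicate 3 of the inhibitor group (0.0164 and 0.0373), the fit that left out HG replicate 2 as well (0.00948 and 0.0096) and the q-values in the authors' deposited table, which were 0.00919 and 0.0421. The highest limma adjusted p over the 20 was 0.639 and 0.682, both without HG replicate 1. Here and below, the 20 leave out the setting that also asks for a 1.5-fold change. Libraries of HG and HG-Res were fully apart in 5 mitochondrial-DNA genes, all higher, where 29.9% of tested genes did not overlap and 15% were higher.

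Only the 2 nuclear genes lower at an unadjusted p under 0.05 are given in full here, and neither passed the adjusted test. ENSG00000189043 was at 158, 158 and 141 CPM in HG and at 115, 116 and 133 in HG-Res, a log2 difference of -0.33 ± 0.12 (SE, limma adjusted p = 0.374). ENSG00000165629 was at 546, 530.0 and 519 CPM in HG and at 414, 422 and 459.9 in HG-Res, a difference of -0.30 ± 0.13 (limma adjusted p = 0.450, q-value 0.026 in the authors' deposited table). The groups did not overlap in either gene. In all, 6 nuclear genes were lower without overlap and 1 was higher, where 14.8% and 15% of tested genes were. The nuclear differences ran from -0.35 to 0.31, with 95% intervals that stayed within 1.5-fold in either direction for 23 of the 29 and within 2-fold for 28.

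Some mitochondrial-DNA genes were higher with the inhibitor on top of resveratrol than with resveratrol alone. With the inhibitor, against HG-Res, 6 of 13 rose and 0 fell at an adjusted p under 0.05 in limma, by 1.21 to 1.52 times, where 1.88% of all tested genes rose and 4.19% fell. The median over the 13 genes was 0.28 on the log2 scale, beside 0.04 over all tested genes. Of the 29 nuclear genes 0 rose and 0 fell in limma, and their median was 0.08. The median SE was 0.076 for the mitochondrial-DNA genes, 0.131 for the nuclear genes and 0.144 over all tested genes. A difference of the same size thus passed more readily among the mitochondrial-DNA genes. The nuclear differences ran from -0.22 to 0.58. At an unadjusted p under 0.05 in limma, 4 of the 29 were higher and 1 lower, where 12.7% of all tested genes were higher and 12% lower, so the first count was near the background and the second below it. By the authors' q-values 0 nuclear genes passed and 1 mitochondrial-DNA gene was higher, where 3.31% of tested genes were higher and 5.38% lower. The replicate values did not overlap in 10 mitochondrial-DNA genes, all higher, and in 10 nuclear genes, of which 8 were higher, where 33.7% of tested genes did not overlap, 17.7% higher and 16% lower.

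ENSG00000198804 had the smallest p of the 13. It was at 5031, 5070.2 and 5132 CPM in HG, 5145, 5258 and 5301 in HG-Res, and 6928, 6516 and 6970.2 in HG-Res-SIRT7-Inh. The HG-Res libraries lay just above those of HG, and those with the inhibitor stood clear above both. Its log2 difference was 0.38 ± 0.06 (SE) against HG-Res and 0.42 ± 0.06 against HG, with limma adjusted p = 0.0059 and 0.00231. Against HG-Res the call held in 18 of 20 alternatives (adjusted p or q-value 0.00193 to 0.0617).

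ENSG00000198695 had the largest rise against HG-Res. It was at 428, 538 and 444 CPM in HG, 488, 437 and 418 in HG-Res, and 660.4, 698 and 681 in the inhibitor group. HG and HG-Res overlapped, and all 3 libraries with the inhibitor were above them. Against HG-Res the log2 difference was 0.61 ± 0.11 (SE, limma adjusted p = 0.0118), and its q-value of 0.000851 in the authors' deposited table was the only value of the 13 below 0.05. The limma call held in 17 of 20 alternatives, in which the highest adjusted p was 0.0715.

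The other 4 genes that rose against HG-Res were closer to the threshold. ENSG00000198840, at 2484 to 2702 CPM in HG-Res, was at 3139, 3103 and 3579 with the inhibitor (limma adjusted p = 0.0323). ENSG00000212907 was at 4748, 4896 and 4752 CPM in HG-Res and 6010.3, 5620.3 and 6392 with the inhibitor (limma adjusted p = 0.0363). ENSG00000198886 was at 2978, 2959 and 2898 CPM in HG-Res and 3655, 3425 and 3619 with it (limma adjusted p = 0.0373). In each of the 3 the groups did not overlap. ENSG00000198786 was at 1102, 1073 and 1054 CPM in HG-Res and 1301, 1292 and 1521 with the inhibitor (limma adjusted p = 0.0484), again without overlap. Their log2 differences were 0.35, 0.32, 0.28 and 0.35. These 4 calls held in 7, 8, 6 and 6 of 20 alternatives, in which the highest adjusted p or q-value was 0.150, 0.148, 0.202 and 0.182.

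The count of 6 moved with the model and with single libraries. It was 2 after median-of-ratios or trimmed-mean scaling, 2 with the 2 groups alone in the fit, and 10 when HG replicate 2 and inhibitor replicate 3 were left out together. Leaving out 1 library gave 1 (without HG-Res replicate 2 or 3 or HG-Res-SIRT7-Inh replicate 2), 2 (without HG replicate 1 or HG-Res replicate 1), 3 (without HG replicate 3), and up to 8 otherwise. The median over the 13 genes was 0.26 to 0.30 over the 6 fits that each left out 1 library of the 2 groups, and 0.24 after trimmed-mean scaling.

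More genes of mitochondrial DNA passed with both compounds against high glucose alone than in either other comparison. Between HG-Res-SIRT7-Inh and HG, 9 of 13 mitochondrial-DNA genes rose and 0 fell in limma, where 4.27% of all tested genes rose and 6.5% fell. They rose by 1.26 to 1.56 times, with adjusted p from 0.0011 to 0.0332. All 13 lay above 0 with a median of 0.35, beside 0.04 over all tested genes. Here too the 13 are not separate observations. The 6 genes that rose against HG-Res were all among the 9, with ENSG00000198712, ENSG00000228253 and ENSG00000198727 added. Of the 29 nuclear genes 1 fell and 0 rose in limma (1 higher and 2 lower at an unadjusted p under 0.05, where 14.1% of all tested genes were higher and 13.8% lower, so both nuclear counts were below the background). By the q-values of the authors' deposited table, no nuclear gene passed and 3 mitochondrial-DNA genes were higher, where 3% of tested genes were higher by that rule and 4.85% lower. Replicate values did not overlap in 11 mitochondrial-DNA genes, all higher, and in 6 nuclear genes, 4 of them higher, where 12.8% of tested genes were higher without overlap and 15.3% lower. The count of 9 was 4 without HG replicate 1, 5 without HG-Res-SIRT7-Inh replicate 2 and 6 to 10 without any other single library.

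ENSG00000198840 showed the largest change from HG among the genes of mitochondrial DNA, and it was higher at both steps. From 2028 to 2125 CPM in HG it went to 3103 to 3579 in HG-Res-SIRT7-Inh, a log2 difference of 0.64 ± 0.08 (SE, limma adjusted p = 0.0011) that passed in all 20 alternatives (adjusted p or q-value 0.000277 to 0.0145). ENSG00000212907, at 4208, 4158 and 4720.0 CPM in HG, reached 5620.3 to 6392, a difference of 0.46 ± 0.08 (limma adjusted p = 0.00534), and it also passed in all 20 (adjusted p or q-value 0.00369 to 0.0492). At 1.38 times HG, ENSG00000212907 fell short of the 1.5-fold minimum, which the 20 leave out. ENSG00000198712 ended at 12856, 11645 and 11181 CPM, above its HG-Res libraries (10421 to 10537), with 0.43 ± 0.07 against HG (limma adjusted p = 0.00514). These 3 genes and ENSG00000198804 were the 4 of 13 whose 3 groups climbed from HG through HG-Res to HG-Res-SIRT7-Inh without any overlap. Among all tested genes 1.51% did so, and 0 of the 29 nuclear genes did.

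The remaining calls rested on fewer of the alternatives. ENSG00000228253 was at 1327, 1654 and 1637 CPM in HG, 1648, 1600.3 and 1535 in HG-Res, and 2211, 2336 and 1882 in HG-Res-SIRT7-Inh. ENSG00000198727 was at 3108, 3417 and 3122 CPM in HG, 3437, 3337 and 3373 in HG-Res, and 4284, 4054 and 3797 in HG-Res-SIRT7-Inh. In both genes HG and HG-Res overlapped and the inhibitor libraries lay above them. Against HG their log2 differences were 0.48 ± 0.11 and 0.33 ± 0.07 (SE, limma adjusted p = 0.0262 and 0.0207), and against HG-Res 0.42 ± 0.11 and 0.26 ± 0.07 with limma adjusted p = 0.057 and 0.0696. ENSG00000198786, ENSG00000198886 and ENSG00000198695 differed from HG by 0.35, 0.34 and 0.54 (limma adjusted p = 0.0332, 0.0119 and 0.0137). The first of these 3 calls held in 6 of 20 alternatives and the others in 16 each.

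The 4 mitochondrial-DNA genes that passed neither test with the inhibitor were ENSG00000198888, ENSG00000198763, ENSG00000198899 and ENSG00000198938. Against HG their log2 differences were 0.30, 0.17, 0.16 and 0.08, with limma adjusted p = 0.0978, 0.205, 0.203 and 0.482. ENSG00000198938 was at 6651, 7084 and 6667 CPM in HG, 7512, 7642 and 7456 in HG-Res, and 8014, 6947 and 6725 in HG-Res-SIRT7-Inh. Its HG-Res libraries were all above HG, and its inhibitor libraries spread across both groups. Its difference from HG-Res was -0.06 with a 95% interval of -0.23 to 0.11, the 1 value of the 13 below 0.

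**Figure D2:**
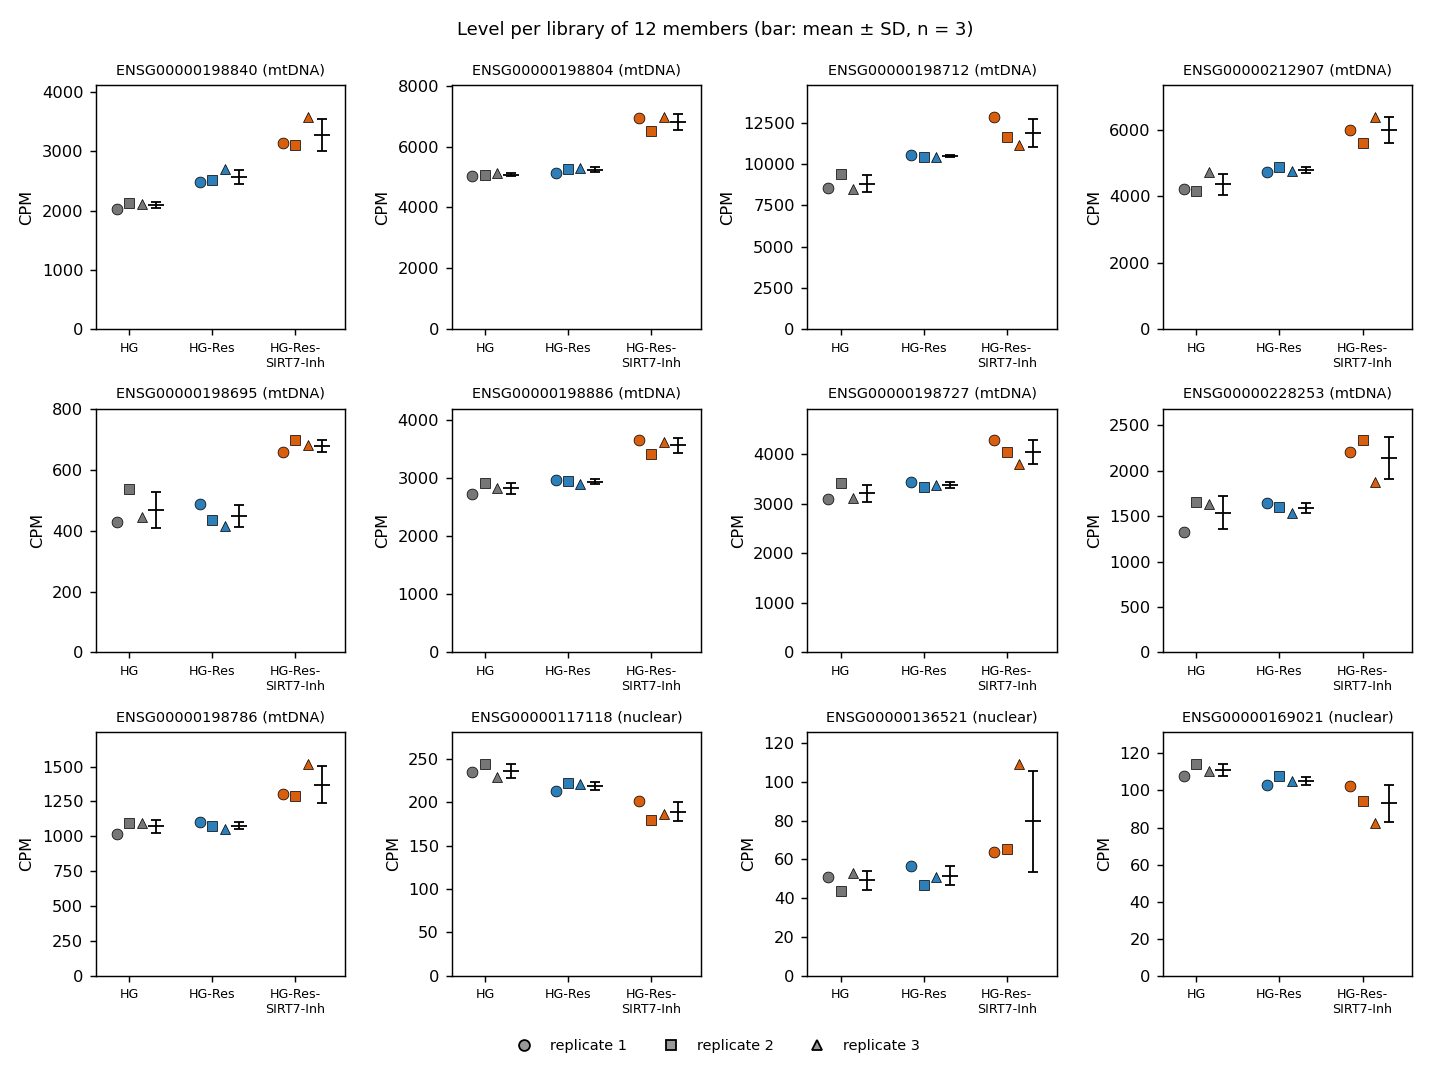
Level in CPM of 12 members in each library of the 3 groups, with the mean ± SD beside the points: the 10 members with an adjusted p under 0.05 in any of the 3 comparisons, 9 of mitochondrial DNA and 1 nuclear, and 2 more nuclear genes with the next smallest adjusted p. In all 9 mitochondrial-DNA genes the inhibitor libraries lie above every HG library.

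The shares of the 13-gene sum, which do not depend on scaling between libraries, differed between groups for some genes of mitochondrial DNA. ENSG00000198938 took 16.3, 16.2 and 15.9% of the sum in HG, 16.1, 16.6 and 16.2% in HG-Res, and 14.3, 13.2 and 12.7% in HG-Res-SIRT7-Inh. Its share was lower in every inhibitor library than in any other. ENSG00000198763 likewise went from 3.93% ± 0.054 in HG and 3.81% ± 0.2 in HG-Res to 3.48% ± 0.12 (SD, n = 3). ENSG00000198840 went the other way, from 4.96% ± 0.097 in HG through 5.56% ± 0.28 to 6.1% ± 0.61. Its shares with the inhibitor (5.6, 5.92 and 6.78%) overlapped those in HG-Res (5.33, 5.46 and 5.88%), and both groups were above HG. ENSG00000198712, the gene with the largest share, took 20.9% ± 0.66 in HG, 22.7% ± 0.055 in HG-Res and 22.1% ± 0.89 with the inhibitor, so its share was higher in HG-Res than in HG and overlapped both with the inhibitor. ENSG00000198695 took 1.11% ± 0.1, 0.969% ± 0.072 and 1.27% ± 0.079. Its share in HG-Res was below that of both other groups, narrowly so for HG. Some protein genes of mitochondrial DNA overlap, 1 lies on the other strand, and the nucleus carries copies of mitochondrial sequence. How reads from such places were counted is not given in the sources used here, so the split between single genes is less certain than their sum.

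**Figure D3:**
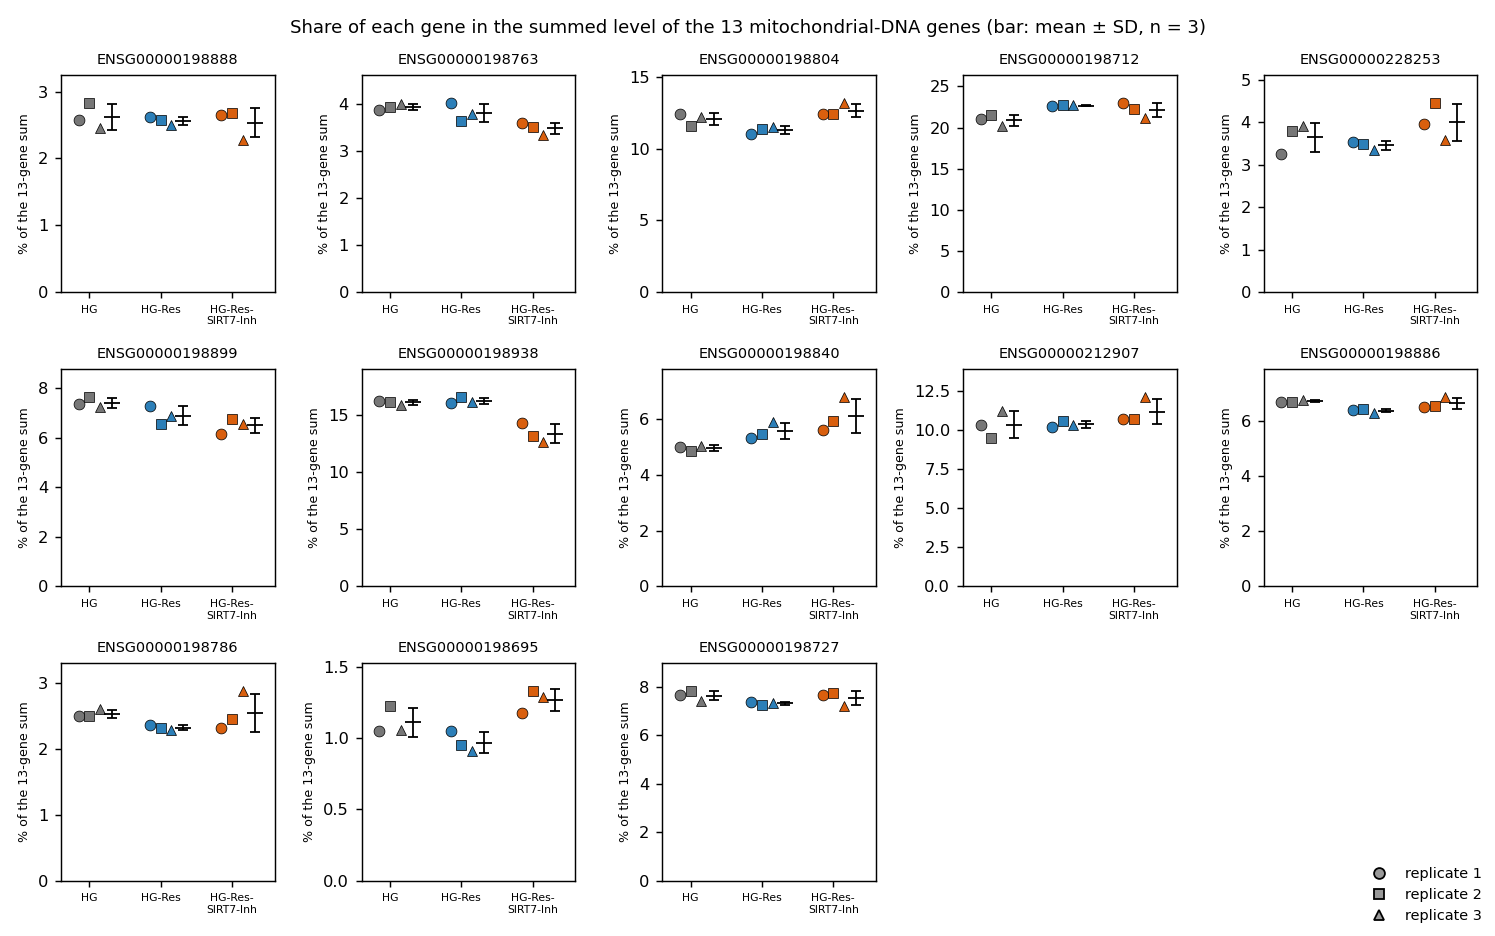
Share of each of the 13 mitochondrial-DNA genes in their summed level, in percent, for each library of the 3 groups, with the mean ± SD beside the points. ENSG00000198938 has a mean share of 16.1% in HG and 13.4% with the inhibitor while that of ENSG00000198840 is 4.96% and 6.1%.

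The nuclear gene that fell was ENSG00000117118. It was at 235, 244 and 229 CPM in HG, 213, 222 and 221 in HG-Res, and 201, 179.9 and 187 in HG-Res-SIRT7-Inh. The 3 groups stepped down without overlap. The log2 difference from HG was -0.32 ± 0.09 (SE) and limma adjusted p = 0.0467, just inside the threshold, and the call held in 6 of 20 alternatives (adjusted p or q-value 0.0147 to 0.195). Among the settings that lost it were median-of-ratios, trimmed-mean and mitochondria-free scaling, and leaving out any 1 of HG replicates 1 to 3, HG-Res replicates 1 to 3 or HG-Res-SIRT7-Inh replicate 2. ENSG00000169021 was the other nuclear gene to step down without overlap, from 108, 114 and 110.4 CPM in HG through 103, 108 and 105 in HG-Res to 102, 94.2 and 82.6, a pattern that 2.84% of all tested genes showed. Its difference from HG was -0.26 ± 0.10 (SE, limma adjusted p = 0.141).

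Some nuclear genes that did not pass had wide spreads between replicates. ENSG00000136521 was at 51.0, 43.7 and 53.2 CPM in HG, 56.5, 46.8 and 51.2 in HG-Res, and 63.8, 65.6 and 109 in HG-Res-SIRT7-Inh. All inhibitor libraries were above the rest, with replicate 3 far above. The log2 difference was 0.58 ± 0.20 (SE) from HG-Res and 0.64 ± 0.20 from HG (limma adjusted p = 0.117 and 0.0676), and with replicate 3 of the inhibitor group left out it was 0.33 and 0.39 (limma adjusted p = 0.106 and 0.0373). ENSG00000204370 was at 135, 58.6 and 154 CPM in HG, 151, 130.4 and 119 in HG-Res, and 134, 188 and 150.4 in HG-Res-SIRT7-Inh. Its level in HG replicate 2 was below every other library, the other 8 overlapped, and the 95% interval of its difference from HG ran from -0.16 to 1.24. ENSG00000179091 was at 480.3, 571 and 469 CPM in HG, 538, 549.7 and 542 in HG-Res, and 566, 519 and 344 in HG-Res-SIRT7-Inh. Here replicate 3 with the inhibitor was the lowest of all 9 libraries. Differences without these libraries are not given for ENSG00000204370 and ENSG00000179091.

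HG-Res-SIRT7-Inh replicate 3 was the highest of the 9 libraries in 10 of the 29 nuclear genes and the lowest in 9, while it was the highest in 4 of the 13 mitochondrial-DNA genes and the lowest in 0. HG replicate 2 was the highest in 9 nuclear genes and the lowest in 3. The same counts over all tested genes, on which both libraries stood apart, were not made. Every inhibitor library was above the other groups on the mitochondrial-DNA sum, which leaves little room for a lowest value among those genes. Within HG-Res, replicate 3 was the highest of its group in 21 nuclear genes and replicate 1 the lowest in 21. The median SD between replicates on the log2 scale was 0.117, 0.072 and 0.205 over the nuclear genes in HG, HG-Res and the inhibitor group, close to 0.132, 0.071 and 0.242 over all tested genes. Over the mitochondrial-DNA genes it was 0.077, 0.033 and 0.096. The median SE of a log2 difference was 0.076 for the mitochondrial-DNA genes against 0.131 for the nuclear ones.

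**Figure D4:**
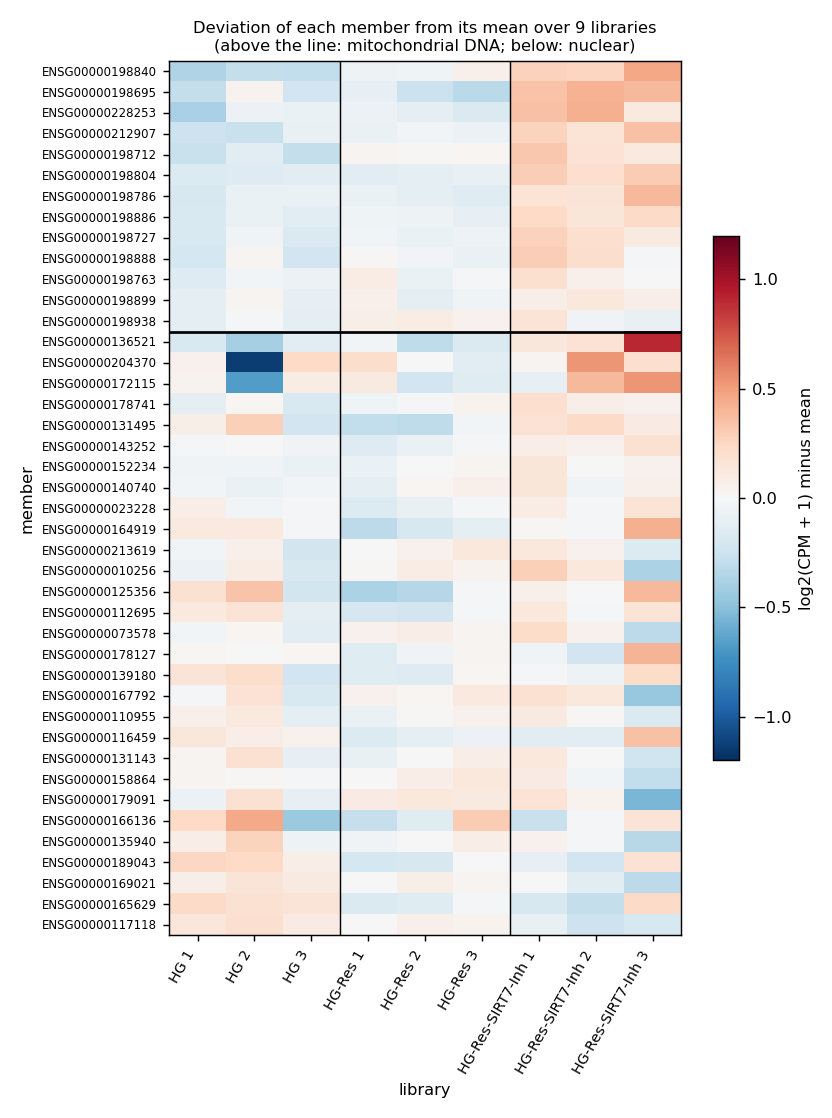
Deviation of each of the 42 members from its own mean over the 9 libraries, on the log2(CPM + 1) scale, with the mitochondrial-DNA genes above the line and the nuclear genes below it, each ordered by the difference of HG-Res-SIRT7-Inh from HG. In the lower block HG-Res-SIRT7-Inh replicate 3 holds the highest value of the row for 10 genes and the lowest for 9, and in the upper block it is the highest for 4 and the lowest for 0.

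Without the 2 libraries that stood apart, more genes passed in limma in every comparison, among members of both origins and among all tested genes. In the inhibitor group against HG, 12 of 13 mitochondrial-DNA genes then rose and 0 fell, and 6 of 29 nuclear genes rose and 4 fell, where 16.6% of all tested genes rose and 14.4% fell. Against HG-Res, 10 mitochondrial-DNA genes and 2 nuclear genes rose and 0 of either fell, where 9.62% rose and 9.15% fell. In HG-Res against HG, 3 mitochondrial-DNA genes and 1 nuclear gene rose and 3 nuclear genes fell, where 11.2% rose and 10% fell. The nuclear counts against HG were thus near or below the background of the same fit. The 2 libraries were picked for standing apart in these data, so these counts are no independent estimate. The nuclear median against HG was 0.03 with all libraries and ranged from -0.05 to 0.07 over the 6 fits that each left out 1 library of the 2 groups, and 22 to 25 of the 29 nuclear intervals in the 2 comparisons with the inhibitor stayed within 1.5-fold in either direction.

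The median of the mitochondrial-DNA genes exceeded that of the nuclear genes by 0.14 between HG-Res and HG, by 0.20 between the inhibitor group and HG-Res, and by 0.32 between the inhibitor group and HG. Over the 6 fits that each left out 1 library of the groups compared, these gaps ranged from 0.06 to 0.17, from 0.13 to 0.24 and from 0.26 to 0.42. The 3 comparisons share libraries and are not independent of each other, and no test of the gap was made.

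**Figure D5:**
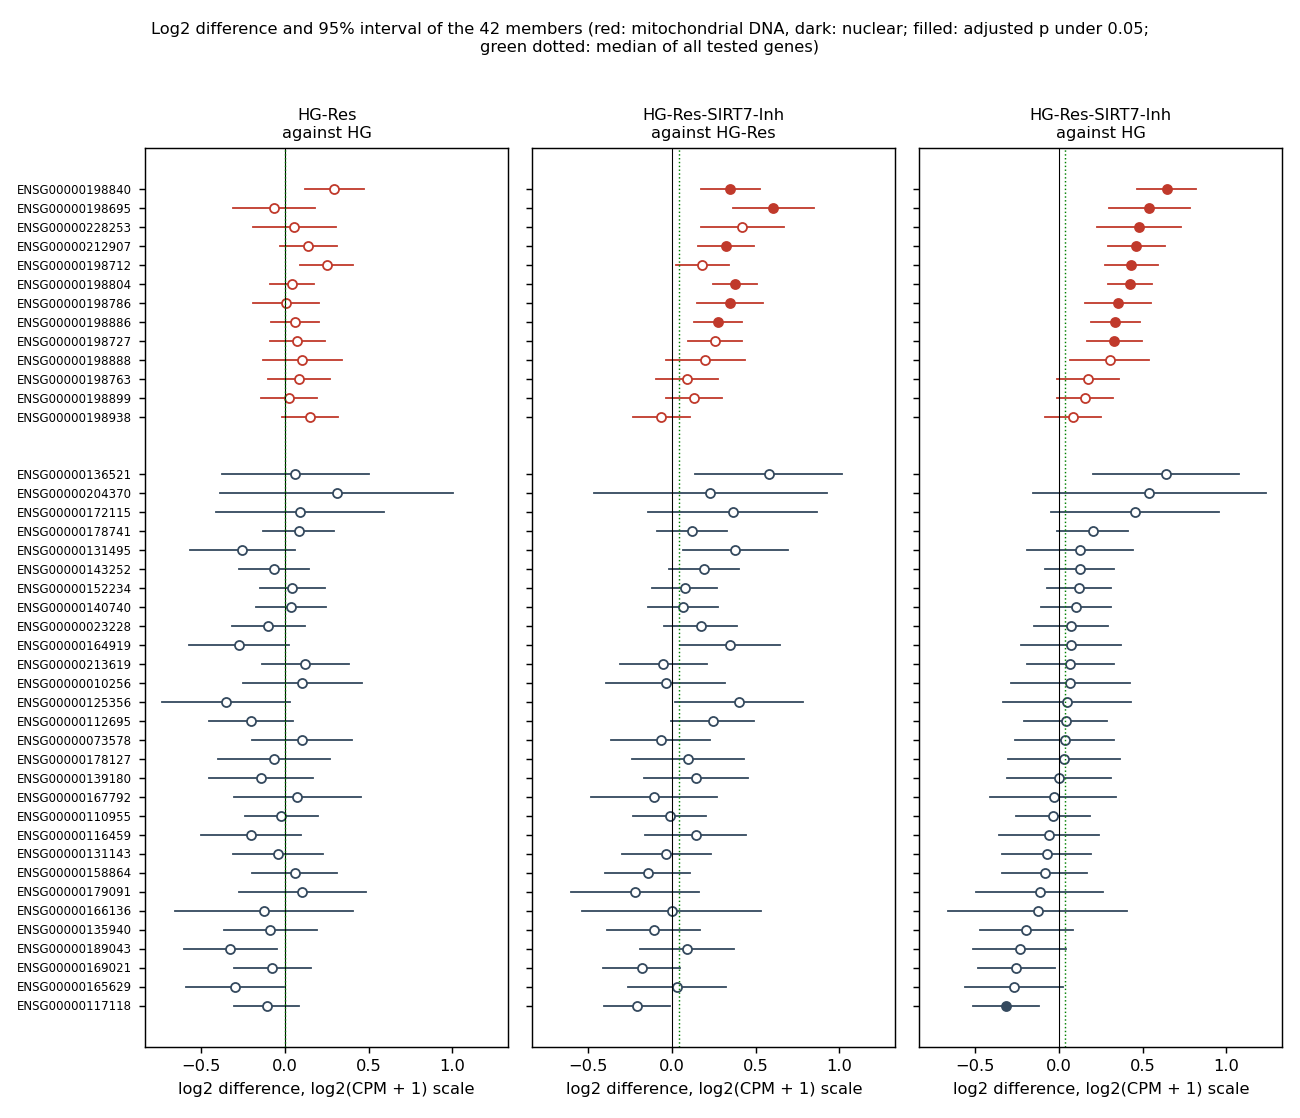
Log2 difference (points) and 95% interval (lines) of the 42 members in the 3 comparisons, on the log2(CPM + 1) scale, with mitochondrial-DNA genes in red above and nuclear genes in dark blue below. Filled points, 0 in the first panel, 6 in the second and 10 in the third, have an adjusted p under 0.05, and all but 1 of them are genes of mitochondrial DNA.

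For high glucose itself the files say little of these genes. The authors' deposited table of HG against Ctrl holds 354 marked genes, and 0 of the 42 members were among them. Each full table of the other comparisons holds 20263 genes, so a list this short would hold few of any 42 genes. Ctrl values of the members were therefore not analysed here, and whether the levels in HG differ from those in 5.5 mM glucose was not tested.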

How the data were processed

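RNA from 12 cultures was selected with oligo(dT) beads and sequenced as paired-end reads, per the labels' protocols. The submitters' processing notes name Trimmomatic and build rn6, with no aligner, counter or annotation. The authors deposited per-library values headed TPM in 3 tables of the high-glucose groups, with log2 fold changes, p-values and q-values of their own. Each column sums to 999997 to 1000001 and its low values lie on whole steps of 1 size within rounding (0.005), so the deposited values were read as CPM, not scaled by length. Libraries shared by tables held identical values.

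From these, limma 3.58.1 (R 4.3.3, with trend) was fitted to log2(CPM + 1) over the 9 high-glucose libraries, for 12854 of 20263 genes at 0.5 CPM or more in 3 libraries, with Benjamini-Hochberg adjustment over all of them at 0.05. Fold changes are on that scale and understate low genes. On simulated data with 1 common spread, the fit recovered 43.3 to 46.3% of 1.5-fold changes and 94 to 97% of 2-fold changes. It made 5 to 12 false calls a comparison. Not passing is therefore not by itself a sign that a gene changed by less than 1.5-fold. Values per library were given for members past the threshold, up to 12, filled to 3 of each origin by smallest adjusted p; genes outside that rule, nuclear ones and ENSG00000198938, were chosen after their values were seen. The origin of each member was taken from the order of the member list. Members and lists were chosen with earlier results of these data known. Other pathway genes, cell type markers and single complexes, listed by symbol, were not analysed here. Recovered depth limits precision little at these levels; p-values measure the spread between cultures.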

Additional observations from a re-analysis of the deposited data

How the results depend on the processing

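Results were recomputed under 21 alternatives. Many of them change the test and cannot move a median difference, and scaling cannot move the gap between the origins' medians by more than the pseudocount allows. The 6 fits that each left out 1 library of the groups compared can move both. Over those 6 the mitochondrial-DNA median was 0.05 to 0.11 in HG-Res against HG, 0.26 to 0.30 in the inhibitor group against HG-Res and 0.32 to 0.39 against HG, and the gap was above 0 in each. Counts of genes past the threshold also moved, among all tested genes too. Not every member count below is given beside the count of all tested genes in the same fit. The cause was not tested for any of these changes. For HG-Res against HG, where 0 passed, the fit of the 2 groups alone and the authors' q-values each gave 2 mitochondrial-DNA genes that rose and 1 nuclear gene that fell. More of all tested genes passed in both as well. By the q-values 4.67% were higher and 3.8% lower, beside 0.327% and 0.381% in the main fit. The 1 nuclear gene of 29 was thus near the background of the q-values. Leaving out 1 library gave 0 to 2 mitochondrial-DNA genes that rose and 0 to 1 nuclear genes that fell. The higher counts came without HG-Res-SIRT7-Inh replicate 3, when 421 of all tested genes rose and 380 fell. Without it and HG replicate 2 the member counts were 3 and 3, with 1 nuclear gene that rose. In that fit 11.2% of all tested genes rose and 10% fell. In the inhibitor group against HG-Res, the 6 mitochondrial-DNA genes that rose became 2 under median-of-ratios scaling, TMM scaling, the 2 groups alone and a single prior variance, 1 without the filter, 1 by the authors' q-values, 1 with a 1.5-fold minimum and 10 without both libraries that stood apart, when 2 nuclear genes rose. Leaving out 1 library gave 1 to 8 mitochondrial-DNA and 0 to 1 nuclear genes that rose, and a nuclear median of 0.043 to 0.138. For HG-Res-SIRT7-Inh against HG, the 9 became 4 without the filter and with the 2 groups alone, 3 by the authors' q-values, 1 with a 1.5-fold minimum, 12 without both libraries that stood apart, and 4 to 10 without 1 library. The 1 nuclear gene that fell became 0 under median-of-ratios, TMM or mitochondria-free scaling, the 2 groups alone, 1.5-fold, the authors' q-values and a single prior variance. It was 0 to 4 without 1 library, with 0 to 1 that rose. Without both libraries 4 nuclear genes fell and 6 rose, where 14.4% of all tested genes fell and 16.6% rose. The gap between the medians was then 0.26 to 0.42 without 1 library. Of the 12 members recomputed gene by gene, 4 had a difference between HG-Res and HG that did not pass and that changed sign. The other 30 members were not recomputed gene by gene. Leaving out 1 library gave -0.129 to 0.035 for ENSG00000198695 (above 0 without HG replicate 2), -0.046 to 0.113 for ENSG00000228253 (below 0 without HG replicate 1), -0.03 to 0.026 for ENSG00000198786 (below 0 without HG replicate 1 or HG-Res replicate 1) and -0.02 to 0.129 for ENSG00000136521 (below 0 without HG replicate 2 or HG-Res replicate 1). Without both libraries that stood apart the first was 0.035 and the last -0.02.

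With the replicate number as a block, 2 in place of 6 mitochondrial-DNA genes rose against HG-Res and 0 in place of 1 nuclear gene fell against HG. The numbers were not taken to pair the libraries. Deviations of same-number pairs correlated at -0.55 to 0.64, over 0.1 in 4 of 9 pairs. Those of different-number pairs ran as widely, from -0.72 to 0.78.

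Over all tested genes the counts moved too. Between HG-Res and HG, 42 genes rose and 49 fell, with 9 to 1434 and 10 to 1288 over the 21 alternatives. Against HG-Res the inhibitor group had 242 and 538 (42 to 1236 and 228 to 1176), and against HG it had 549 and 836 (106 to 2138 and 314 to 1853).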
